A study of Mus musculus with 5 samples.

Results

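The C/EBPα peak list of Hoxa9- and Meis1-transformed mouse bone marrow progenitors held 26446 peaks, all of which are described here, out of 166982 peaks and regions in the 4 lists used. The peaks were divided into 3 tiers by the number of sequenced tags in each peak: 11161 peaks of 15 to 29 tags, 11952 of 30 to 99 tags and 3333 of 100 or more tags. Members were thus chosen by the library's own calls, and their tags and summit positions set the tiers and clusters. Peaks were chained into clusters, in which each summit (the base of highest signal in a peak) lay 12.5 kb or less from the next. In this way 12057 peaks stood alone, 10098 fell in 4432 clusters of 2 or 3 peaks, and 4291 fell in 863 clusters of 4 or more.

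The cells were hematopoietic progenitors of C57B6 mice, enriched from bone marrow by lineage depletion, transduced with the retroviral vectors MIGR1-HA-Hoxa9 and MIGR1-Flag-Meis1 and cultured with IL3. All libraries came from cells carrying both vectors, so no cells without them were compared. C/EBPα was precipitated with an antibody against the protein itself, sc-61X, and H3K4me1, H3K27me3 and HA-tagged Hoxa9 were mapped in the same kind of cells. There was 1 library per precipitation and hence no replicate error, and intervals on shares cover counting error only. Gene expression was not measured in these libraries, so the labelled cell type could not be set against marker genes.

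C/EBPα is a basic leucine zipper transcription factor that binds DNA as a dimer and directs progenitors towards the granulocyte and monocyte lineages. Enhancers often hold several binding sites of such a factor, and genes active in a lineage can be flanked by groups of enhancers. H3K4me1 marks the nucleosomes around enhancers, both primed and active, whereas H3K27me3 is laid down by Polycomb repressive complex 2 over silent genes. The comparisons below ask how the strength of a C/EBPα peak, counted in tags, and its grouping with other peaks went with these 2 marks.

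Tags were spread unevenly over the list. The strongest tier made up 12.6% of peaks and held 38.7% of the 1408867 tags in peaks, whereas the weakest tier made up 42.2% of peaks and held 16.1% of tags. The median peak had 35 tags, with quartiles of 21 and 64. The caller's fold enrichment over background had a median of 5.35 in the weakest tier, 10.1 in the middle tier and 25.75 in the strongest. Since tags define the tiers and enrichment comes from the same calls, these values describe the tiers and were not tested.

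Peaks widened with tags. The median width was 458 bp in the weakest tier (quartiles 401 and 540), 730 bp in the middle tier (657 and 832) and 1070 bp in the strongest (969 and 1215). Of the weakest peaks 62.7% were narrower than 500 bp and 0 reached 1000 bp, and of the strongest 67.4% were 1000 bp or wider. Width rose less than tags did, so the tags were packed more densely in strong peaks. The median density was 0.0422 tags per bp in the weakest tier, 0.0658 in the middle and 0.132 in the strongest. Summits lay near the middle of the peaks in every tier. The median summit was 50.8%, 50.2% and 50.3% of the way along the peak, with quartiles of 42.3% and 59.9% in the weakest tier and 45.4% and 54.9% in the strongest.

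**Figure D1:**
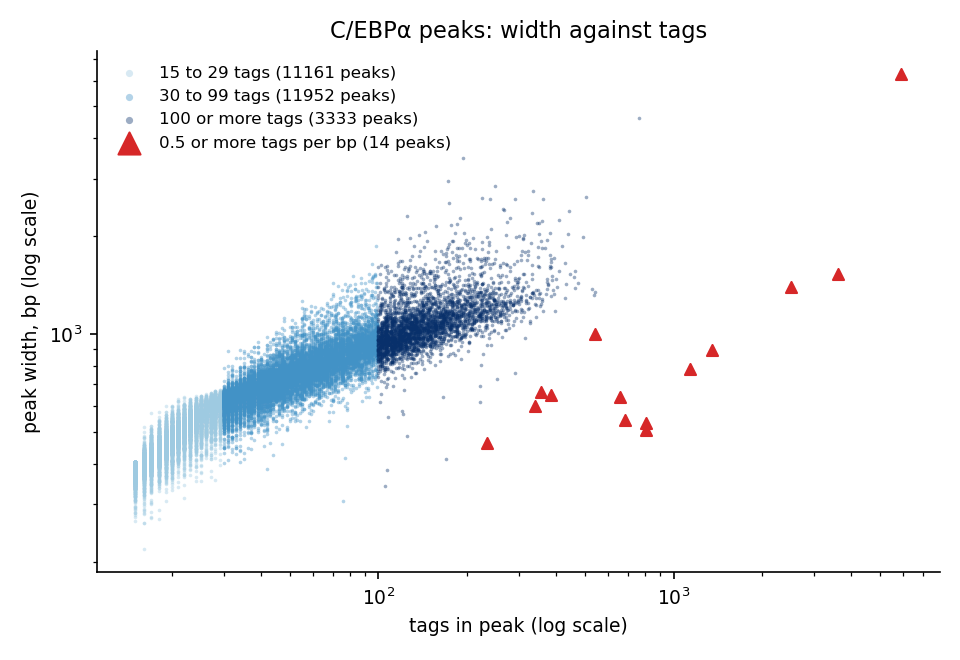
Width of each C/EBPα peak in bp against its tags, both on log scales, with 1 point per peak and colours for the 3 tiers. Width rises with tags from a median of 458 bp to one of 1070 bp, and 14 peaks of 0.5 or more tags per bp (triangles) have many tags for their width.

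Values changed smoothly across the limits between tiers. The 475 peaks of exactly 29 tags were 598 bp wide in the median case with a median enrichment of 6.91-fold, and the 426 peaks of 30 tags were 609.5 bp wide with one of 6.98-fold. On either side of the upper limit, 61 peaks of 99 tags had medians of 950 bp and 18.18-fold, and 68 peaks of 100 tags had 935.5 bp and 20.225-fold. The tiers are therefore ranges of a continuous list. The weakest peaks were also the most numerous at a given tag count, with 1852 peaks at the minimum of 15 tags.

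The 5 peaks with most tags were not those most enriched over background. The peak with most tags, at chromosome 17 from 39979697 to 39985964 (mm9), held 5916 tags over 6268 bp at a fold enrichment of 3.11. It was also the widest peak of the list. The next pair, at chromosome 2 from 98506156 to 98507684 and from 98502069 to 98503461, held 3605 and 2502 tags at fold enrichments of 1.19 and 1.59. In the fourth, at chromosome 9 from 35112591 to 35113485, 1346 tags went with a fold enrichment of 2.65. The fifth, at chromosome 2 from 98503698 to 98504477, held 1136 tags at 2.55. Their densities ran from 0.944 to 2.36 tags per bp.

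In total 14 peaks, all in the strongest tier, reached 0.5 tags per bp, and the densest of the other peaks had 0.409. These 14 had fold enrichments from 1.19 to 3.87 and held 1.37% of all tags in the list. H3K4me1 touched 11 of them, H3K27me3 1 and Hoxa9 5. Together, 4 of the 14 made up a cluster of their own on chromosome 2. Of the 3333 strongest peaks, 46 had a fold enrichment under 5. Leaving out the 14 peaks changed the difference in H3K4me1 between the outer tiers from 33.8 to 33.9 percentage points and the number of clusters of 4 or more from 863 to 862, a setting chosen after seeing the data.

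Among the other peaks the most tags, 766, were in a peak of 4603 bp at chromosome 1 from 90172139 to 90176741, enriched 15.7-fold. The next of these by tags held 543, 538, 530 and 504 tags at fold enrichments of 145.99, 91.14, 62.24 and 41.59. The highest fold enrichment, 145.99, belonged to a peak of 543 tags at chromosome 3 from 157724541 to 157725887. It stood alone, 104.73 kb from the nearest C/EBPα summit, and touched none of H3K4me1, H3K27me3 and Hoxa9. The next by enrichment, at chromosome 4 from 58343300 to 58344774, held 400 tags at 98.44-fold in a cluster of 2 and touched both H3K4me1 and Hoxa9. The third, at chromosome 3 from 19347372 to 19348498, held 309 tags at 94-fold in a cluster of 4 and touched H3K4me1.

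C/EBPα peaks were unevenly spaced along the chromosomes. Over the 26426 gaps between neighbouring summits the median was 24.7 kb and the mean 97.0 kb, 3.93 times the median, as many short gaps were balanced by a few long ones. Of all gaps, 2.26% were 1 kb or less, 18.1% were 5 kb or less, 34.4% were within the cluster limit of 12.5 kb and 18.4% were over 100 kb. The shortest gap was 256 bp, and only 36 gaps were 500 bp or less. The longest ran for 7.81 Mb on chromosome 7, between summits at 38999988 and 46809284, followed by 6.09 Mb on chromosome X and 5.58 Mb on chromosome 12. No break in the gaps marked the cluster limit: 54 gaps lay within 100 bp below it and 40 within 100 bp above it.

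Strong peaks had closer neighbours than weak ones, except at the shortest distances. The median distance to the nearest C/EBPα summit of any tier was 12.5 kb for peaks of 15 to 29 tags, 9.82 kb for 30 to 99 tags and 7.95 kb for 100 or more. A neighbour lay within 5 kb of 29.1%, 33.2% and 37.7% of peaks in the same order, and within 100 kb of 91.1%, 94.9% and 96.2%. Within 1 kb the order was the opposite, with 5.44%, 4.17% and 2.07%. The median strong peak was itself 1070 bp wide.

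**Figure D2:**
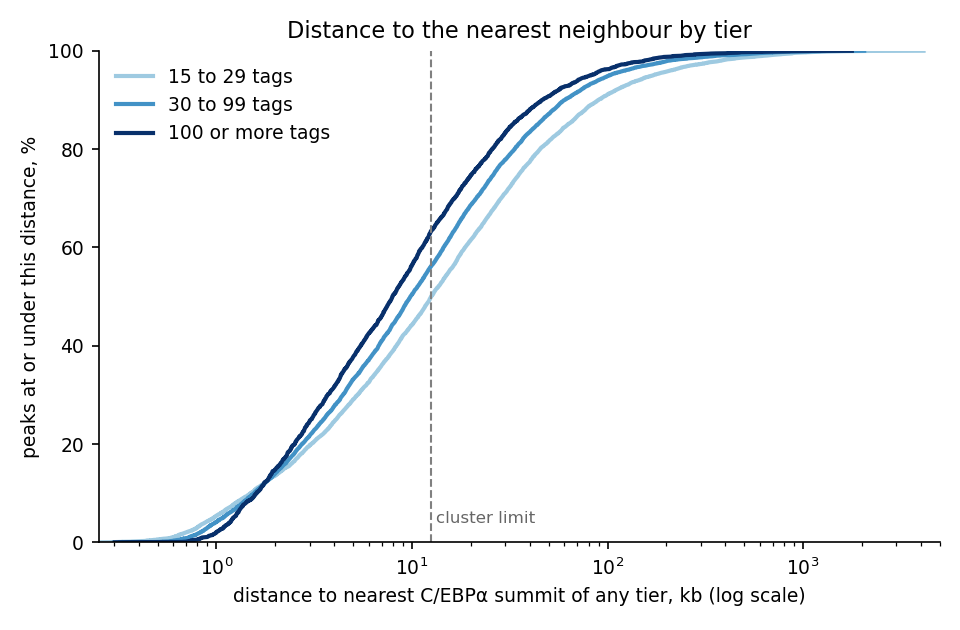
Share of peaks, in %, whose nearest C/EBPα summit lies at or under the distance on the x axis (kb, log scale), with 1 line per tier and a dashed line at the 12.5 kb limit. At that limit the lines stand at 49.9%, 56.1% and 63.3% from the weakest to the strongest tier, and under 2 kb they cross.

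Tags of neighbouring peaks were nearly unrelated. Across the 9094 neighbouring pairs within the cluster limit, Spearman's rho between the tags of both peaks was -0.0026, and across the 4874 pairs over 100 kb apart it was 0.046. These pairs share their library and each peak can enter more than 1 pair, so the values are descriptions. The next shares cover only peaks with a neighbour within the cluster limit. Of 2109 such strong peaks, 14.4% had a strong peak as nearest neighbour (95% exact interval 12.9 to 16.0). This was close to the 14.8% for weak peaks (13.9 to 15.8) and 14.6% for the middle tier. Weak peaks likewise were the nearest neighbour of 39.6% of strong, 38.9% of middle and 38.8% of weak peaks. Peaks with such a neighbour are those in clusters of 2 or more. In clusters of 2 or 3, 13.9% of peaks were strong and 39.6% weak, and in clusters of 4 or more 16.4% and 36.6%. The whole list, which also holds peaks that stood alone, was 12.6% strong and 42.2% weak and is not a like comparison. Taken alone, the strongest tier was sparse: its 3313 gaps had a median of 229 kb, and 8.39% were within the cluster limit.

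Clusters grew rarer with size. Of 17352 chains, 12057 held 1 peak, 3198 held 2, 1234 held 3, 459 held 4, 198 held 5 and 100 held 6, and sizes from 7 to 18 made up the rest. Clusters of 4 or more were 4.97% of chains and held 16.2% of peaks and 19.0% of tags. The number depended on the limit: it was 192 at 5 kb and 1684 at 25 kb. When the weakest tier was left out it was 262.

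Membership moved with the tier, as the spacing did. Of the weakest peaks 50.1% stood alone and 14.1% were in clusters of 4 or more, against 36.7% and 21.1% of the strongest. The middle tier lay between, with 43.9% and 16.9%. Within a tier, width hardly varied with cluster size. Strong peaks had a median width of 1052 bp alone and 1088.5 bp in clusters of 4 or more, and weak peaks 457 and 460 bp. Median fold enrichment was slightly lower in clusters among the weakest peaks, at 5.17 against 5.48 in those that stood alone.

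H3K4me1 was met more often by stronger peaks. An H3K4me1 region touched 6631 of 11161 peaks of 15 to 29 tags, or 59.4% (95% exact interval 58.5 to 60.3), and 9720 of 11952 peaks of 30 to 99 tags, or 81.3% (80.6 to 82.0). In the strongest tier it touched 3108 of 3333, or 93.2% (92.3 to 94.1). The strongest tier exceeded the weakest by 33.8 percentage points (95% Newcombe interval 32.6 to 35.1), and it did so on 20 of 20 chromosomes, with a mean of 33.8 ± 4.98 points (SD over 20 chromosomes). Wide peaks meet more regions, and width rose with tags. At the summit base alone, which does not depend on width, the shares were 51.5%, 69.7% and 75.9%, a difference of 24.3 points. That base is also where cover dipped in the strongest tier, as described below. At 400 bp to either side, likewise free of width, cover was 46.6% and 45.9% in the weakest tier. In the strongest tier it was 80.6% and 81.1%. The gap between 33.8 and 24.3 points therefore does not measure the share due to width.

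Cluster size went with H3K4me1 within each tier, and most of all among weak peaks. Of peaks of 15 to 29 tags H3K4me1 touched 46.6% of those that stood alone (95% exact interval 45.3 to 47.9), 68.1% of those in clusters of 2 or 3 (66.6 to 69.6) and 82.8% of those in clusters of 4 or more (80.8 to 84.6). The last exceeded the first by 36.2 points (95% Newcombe interval 33.8 to 38.4) and on 20 of 20 chromosomes. In the middle tier the shares were 73.5%, 86.0% and 90.9%, a difference of 17.4 points (15.6 to 19.1) that again held on 20 of 20 chromosomes. In the strongest tier they were 90.0%, 94.7% and 96.0%, a difference of 6.06 points (3.74 to 8.24) with the same direction on 17 of 20 chromosomes. With a cluster limit of 5 kb its difference was 3.36 points with an interval from -1.39 to 6.04, and with the upper 50% of H3K4me1 regions by score it was 11.0 points.

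A weak peak in a large cluster was thus marked more often than a middle-tier peak that stood alone, 82.8% against 73.5%. Strength and grouping together ran from 46.6% to 96.0%. Between the outer tiers the difference was 43.3 points among peaks that stood alone, 26.6 in clusters of 2 or 3 and 13.2 in clusters of 4 or more.

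**Figure D3:**
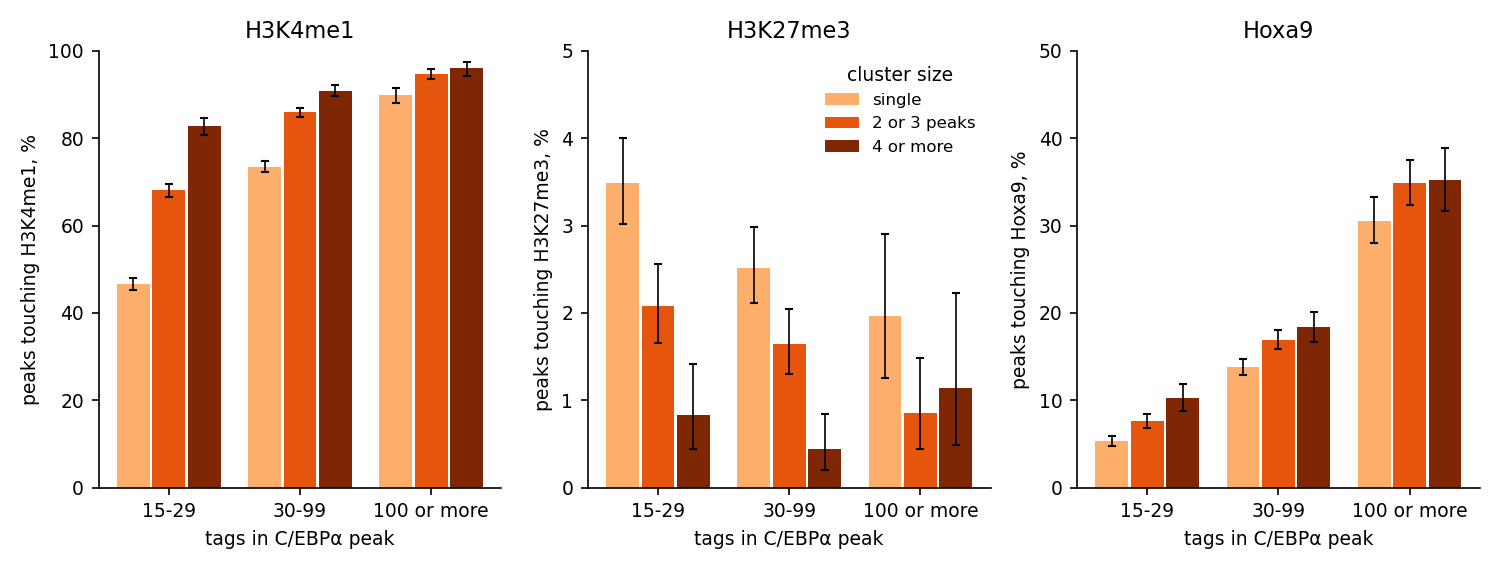
Share of C/EBPα peaks, in %, that touch an H3K4me1 region, an H3K27me3 region or a Hoxa9 peak, by tags (x axis) and cluster size (colours), with bars from 0, 95% exact intervals and a different y scale in each panel. Among peaks of 15 to 29 tags H3K4me1 climbs from 46.6% to 82.8% with cluster size, while H3K27me3 falls from 3.49% to 0.829%.

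The share of weak peaks with H3K4me1 fell steadily with distance from the nearest C/EBPα summit, on both sides of the cluster limit. It was 77.4% with a neighbour within 2 kb, 72.4% at 2 to 5 kb, 68.8% at 5 to 12.5 kb and 59.8% at 12.5 to 25 kb. Farther out it was 47.4% at 25 to 100 kb and 19.5% beyond 100 kb (95% exact interval 17.1 to 22.1, 994 peaks). Strong peaks stayed above 90% out to 100 kb, from 94.3% within 2 kb to 90.1% at 25 to 100 kb. Beyond 100 kb 98 of 126 strong peaks touched H3K4me1, or 77.8% (69.5 to 84.7). Depth of the H3K4me1 library is not given in the sources used here, so a peak without a called region may still lie in weakly marked chromatin.

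Weak peaks that shared a small cluster with a strong one touched H3K4me1 more often than other weak peaks in small clusters. In clusters of 2 or 3, the mark touched 75.8% of them (95% exact interval 72.5 to 78.9) where the cluster held a peak of 100 or more tags and 66.4% (64.7 to 68.0) where it did not, a difference of 9.44 points (95% Newcombe interval 5.83 to 12.8). In clusters of 4 or more the shares were 84.5% (81.8 to 87.0) and 81.0% (78.0 to 83.7), and the interval of the difference, -0.165 to 7.32 points, held 0. Weak peaks were not alone in this. Middle-tier peaks in clusters of 2 or 3 gave 91.5% and 84.7%, a difference of 6.82 points (4.48 to 8.87). In clusters of 4 or more their difference was 0.938 points (-1.58 to 3.48). Distance to the neighbour was not held equal in these comparisons.

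Close neighbours often shared an H3K4me1 region, and those over 5 kb apart seldom did. Of all 100189 H3K4me1 regions only 1.77% were 5 kb or wider, so few could reach both peaks of a distant pair. Of 1933 neighbouring pairs within 2 kb, 60.7% touched the same H3K4me1 region and 16.8% touched different ones. At 2 to 5 kb these were 24.6% and 50.1%, and at 5 to 12.5 kb 2.04% and 68.8%. The share of pairs with neither peak marked was 7.45%, 4.90% and 5.07% in these windows and 24.7% among pairs over 100 kb apart.

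The H3K4me1 regions that C/EBPα peaks touched were wide for that list. Their median width, taking the widest where a peak touched several, was 1510 bp at weak, 1862.5 bp at middle and 2509 bp at strong peaks, against 768 bp over all 100189 regions. Wide regions are met more often by any peak, which these medians do not allow for. By cluster size the medians were 1399 bp at peaks that stood alone, 2009 bp in clusters of 2 or 3 and 2805 bp in clusters of 4 or more. Of marked peaks in the largest clusters, 23.6% touched a region of 5 kb or more, against 3.62% of marked peaks that stood alone. These values count a region at each peak that touched it. Peaks that share a wide region are near neighbours and so tend to fall in the same cluster, which the values by cluster size do not allow for. Strong peaks often bridged a break in the mark: 26.0% of marked strong peaks touched 2 or more regions, against 5.82% of marked weak peaks. Strong peaks were themselves wider, with a median of 1070 bp against 458 bp, and these shares do not allow for that.

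H3K4me1 dipped at the summits of strong peaks. In the strongest tier a region covered 75.9% of summits (95% exact interval 74.4 to 77.3), and 80.6% and 81.1% of positions 400 bp to either side. The weakest tier showed no dip, with 51.5% at summits against 46.6% and 45.9% on the flanks, and neither did the middle tier, with 69.7% against 67.2% and 66.8%. Where both flanks were covered, the summit itself was left bare in 9.63% of strong peaks (8.47 to 10.9), 6.66% of middle (6.07 to 7.29) and 6.34% of weak peaks (5.59 to 7.15).

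Around peaks in larger clusters this profile was higher and wider. At 2 kb on either side of the summit H3K4me1 covered 16.2% and 16.0% of positions around peaks that stood alone and 52.5% and 53.7% around peaks in clusters of 4 or more. Among weak peaks the cover 2 kb away was 11.8% and 12.0% for those alone and 48.4% and 48.8% for those in large clusters. By definition, peaks in clusters have another C/EBPα summit within the cluster limit, and peaks that stood alone have none. The closest summits in a cluster of 4 or more lay 1599 bp apart in the median case. Positions 2 kb away can thus fall in H3K4me1 at a neighbouring peak, which these values do not allow for. For strong peaks in large clusters the summit value was 77.8%, against 84.9% and 85.2% at 400 bp.

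**Figure D4:**
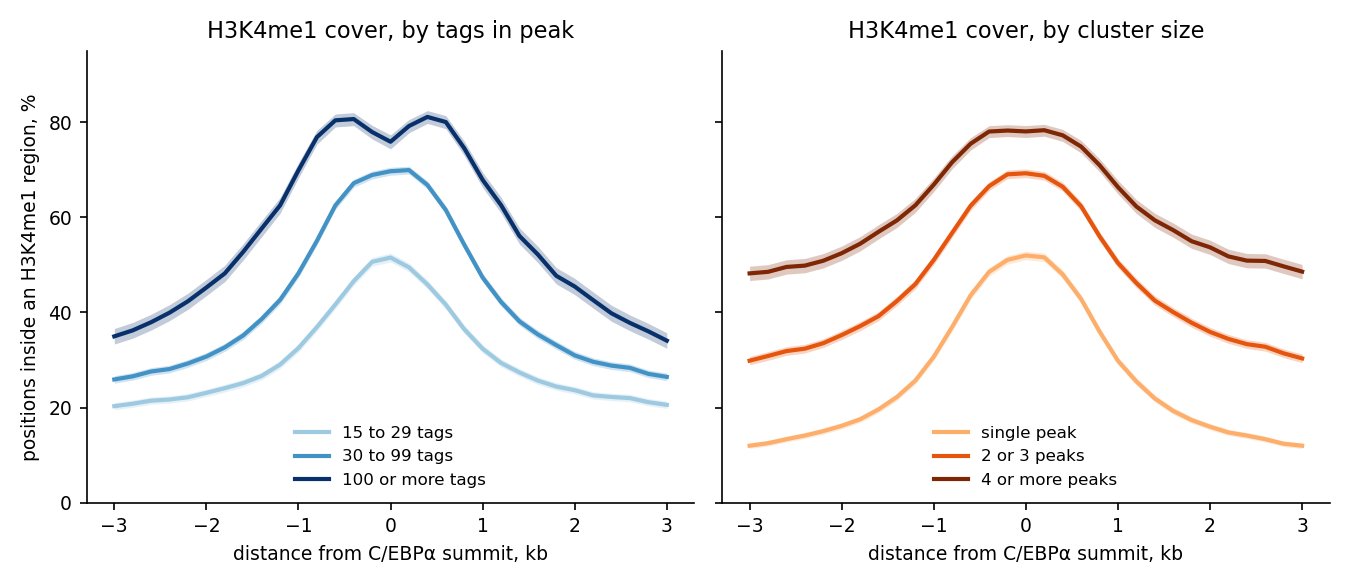
Share of positions inside an H3K4me1 region, in %, against distance from the C/EBPα summit in kb, by tier (left) and by cluster size (right), with shaded 95% exact intervals. The line of the strongest tier dips to 75.9% at the summit between shoulders of 80.6% and 81.1% at 400 bp. The lines by cluster size stay apart out to 3 kb. Around clustered peaks, positions away from the summit can fall at a neighbouring peak.

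H3K27me3 was rare at C/EBPα peaks in every tier and, below 100 tags, was met least in large clusters. A region touched 291 weak peaks, or 2.61% (95% exact interval 2.32 to 2.92), 218 middle peaks, or 1.82% (1.59 to 2.08), and 44 strong peaks, or 1.32% (0.961 to 1.77). The strongest tier was lower than the weakest by 1.29 percentage points, with an interval of the difference from -1.75 to -0.760, on 17 of 20 chromosomes. Strong peaks were also wider, and wide peaks meet more regions. At the summit base alone the shares were 2.06%, 1.16% and 0.510% from the weakest to the strongest tier. Among weak peaks the share was 3.49% for those that stood alone and 0.829% in clusters of 4 or more, a difference of -2.66 points (-3.28 to -1.92) that held on 20 of 20 chromosomes. In the middle tier it was 2.52% and 0.446%, a difference of -2.07 points (-2.58 to -1.51), also on 20 of 20. In the strongest tier it was 24 of 1224 peaks and 8 of 702, and the interval of the difference, -1.92 to 0.445, held 0. In clusters of 4 or more the order of the tiers was not resolved, as strong minus weak peaks gave 0.311 points (-0.499 to 1.46). Both comparisons use the same 8 strong peaks. Among them were the peaks of 360, 205 and 232 tags of a single cluster on chromosome 1, described below.

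Regions of H3K27me3 that did meet C/EBPα peaks were broad, with median widths from 3958.5 to 4287 bp over the tiers against 903 bp in the whole H3K27me3 list. These medians count a region at each peak that touched it. Wide regions are also met more often by any peak, which the medians do not allow for. Both marks touched 363 peaks, or 1.37%. Neither touched 6797 peaks, a share of 25.7% that ran from 51.5% of weak peaks standing alone to 3.99% of strong peaks in large clusters.

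Hoxa9 is a homeodomain factor that, with Meis1, blocks differentiation and drives self-renewal in these cells. Its peaks touched 6.85% of weak C/EBPα peaks, 15.8% of middle and 33.4% of strong peaks. Strong peaks were also wider, and wide peaks meet more regions. No value at the summit base is given for Hoxa9, so these shares do not allow for width. Cluster size went with smaller differences in Hoxa9, whose share was low to begin with. Among weak peaks it touched 5.35% of those alone and 10.3% of those in clusters of 4 or more, a difference of 4.91 points (95% Newcombe interval 3.38 to 6.61) in the same direction on 18 of 20 chromosomes. In the strongest tier the shares were 30.6% and 35.2%, a difference of 4.63 points (0.292 to 9.03) on 14 of 20 chromosomes. Over all tiers the difference in Hoxa9 between strong and weak peaks, 26.5 points (24.9 to 28.2), held on 20 of 20 chromosomes.

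Clusters of 4 or more mixed weak and strong peaks. Of the 863, 755 held a peak of 15 to 29 tags, 484 held a peak of 100 or more, 374 held all 3 tiers, and 12 held weak peaks alone. Their summits spanned a median of 18.8 kb, with quartiles of 13.5 and 24.9 kb and a maximum of 94.6 kb. The strongest member held a median of 5.29 times the tags of the weakest and 42.7% of all tags of its cluster. It lay at an end of the cluster in 364 of 863 cases, or 42.2%, where the end places were 42.8% of all places on average.

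In most large clusters every peak touched H3K4me1, though not all of the span was covered. All members touched the mark in 547 of 863 clusters, all but 1 in 197 and none in 7. A cluster touched a median of 4 separate H3K4me1 regions, which covered 57.9% of its span in the median case (quartiles 41.8% and 74.5%), and 30 clusters touched 1 region in all. H3K27me3 touched a member of 26 clusters. Hoxa9 touched a member of 491, and in 265 of these it touched the strongest C/EBPα peak. In the 291 clusters with exactly 1 Hoxa9-touched member, that member was the strongest in 131, or 45.0%, where 1 place in each cluster came to 21.1% on average. Hoxa9 also rose with C/EBPα tags over the whole list. In all 863 clusters it touched 265 of 871 strongest members, ties included, and 514 of 3420 others.

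The largest cluster lay at chromosome 11 from 83390361 to 83485592 and held 18 peaks. Its tags in order along the chromosome were 144, 49, 42, 33, 20, 132, 26, 17, 23, 125, 121, 103, 51, 90, 19, 34, 67 and 16. Its 5 peaks of 100 or more tags were spread over its first 63.0 kb, and the last 3 of them, of 125, 121 and 103 tags, were direct neighbours. All 18 touched H3K4me1, in 14 separate regions, and 6 touched Hoxa9. The next, at chromosome 2 from 72842099 to 72902513, held 14 peaks with 16 to 266 tags. Its 2 strongest peaks, of 266 and 239 tags, lay 7.70 kb apart, 12 of its peaks touched H3K4me1 and 1 touched Hoxa9.

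A cluster of 13 peaks at chromosome 18 from 55059790 to 55115400 was led by 1 peak of 229 tags at a fold enrichment of 57.8, whereas the other 12 had 15 to 86 tags. Of its peaks 11 touched H3K4me1 and 5 touched Hoxa9. At chromosome 13 from 44616959 to 44699431, 12 peaks ranged from 16 to 189 tags, and at chromosome 2 from 117784265 to 117840219, 11 peaks ranged from 19 to 169 tags. In the former 10 and in the latter 11 touched H3K4me1. The last was 1 of 8 clusters of 11 peaks and was named because it had the most tags of them. H3K27me3 touched none of the 4 larger clusters and none of these 8. The strongest peak touched Hoxa9 in all 4 larger clusters, but in only 2 of the 8 of 11 peaks, 1 of which touched no Hoxa9 peak at all.

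**Figure D5:**
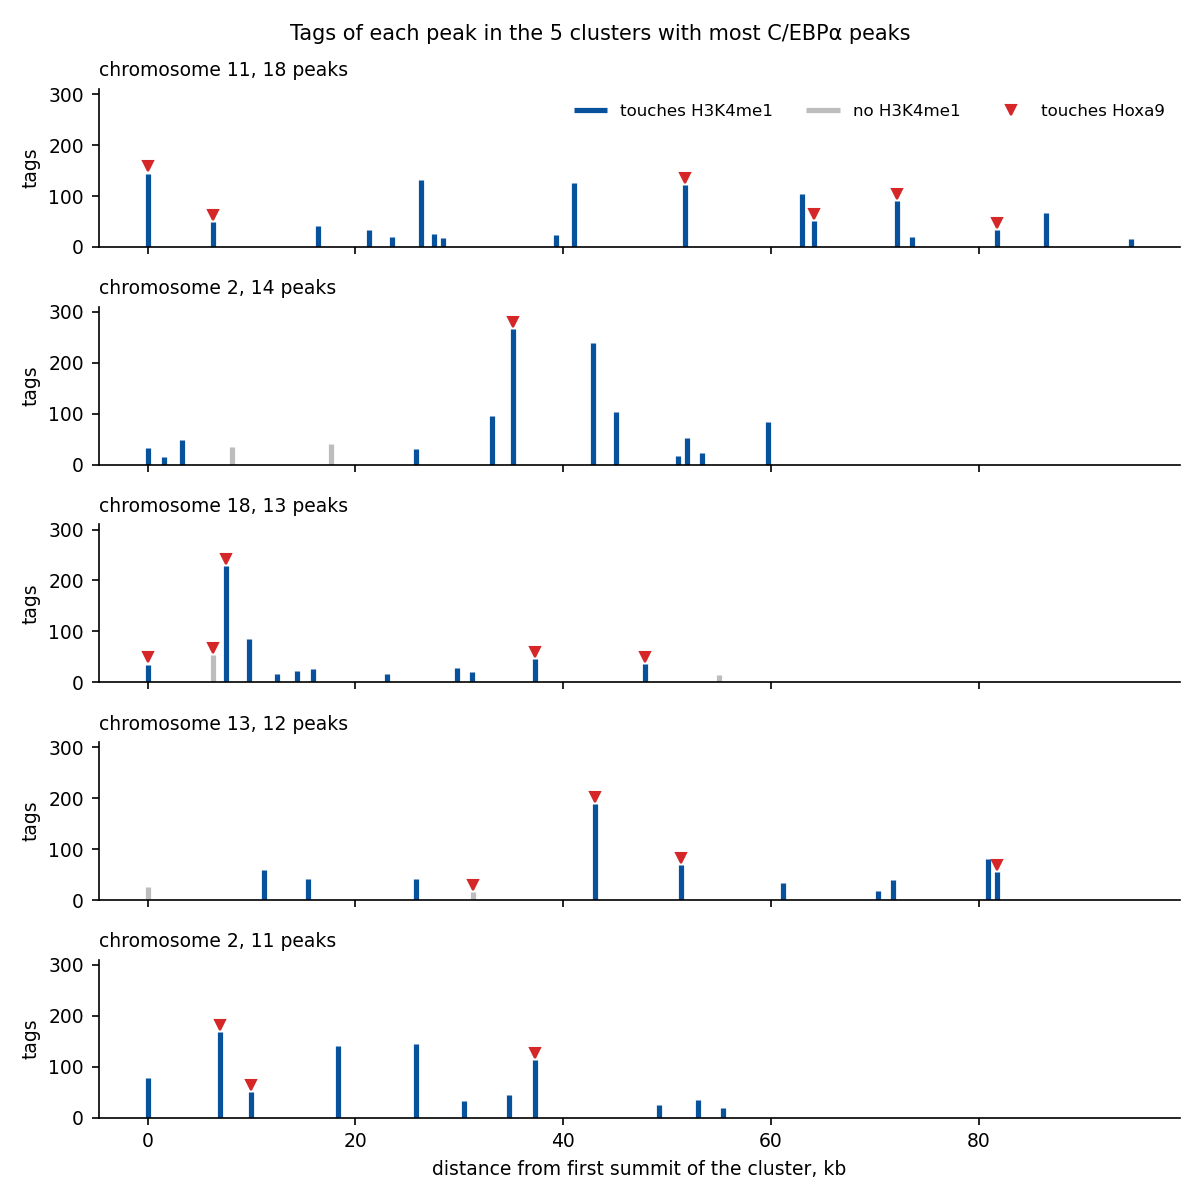
Tags of each C/EBPα peak (line height) against distance from the first summit in kb in the 4 clusters of 12 or more peaks and, of 8 clusters of 11 peaks, the one with most tags, coloured by whether the peak touches H3K4me1, with a triangle where it touches Hoxa9. In the largest cluster, of 94.6 kb, the 5 peaks of 100 or more tags lie in the first 63.0 kb, and the cluster on chromosome 18 is led by 1 peak of 229 tags.

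Peaks were packed most tightly at chromosome 17 from 25466216 to 25470454, where 4 peaks of 139, 17, 15 and 56 tags stood within 4.239 kb, 306 bp apart at the closest. The next, at chromosome 2 from 49664717 to 49670112, held 5 peaks of 86, 22, 15, 62 and 59 tags within 5.396 kb. All 9 of these peaks touched H3K4me1.

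Of the 26 clusters that met H3K27me3, the largest lay at chromosome 1 from 172983414 to 173024981 and held 10 peaks. Its tags in order were 46, 41, 88, 29, 360, 205, 232, 38, 15 and 29. The peaks of 360, 205, 232 and 38 tags touched H3K27me3 and also H3K4me1, and the first 3 of these were 1700 to 2600 bp wide with fold enrichments of 6.85 to 9.52. Fewer peaks met it elsewhere: 1 of 8 peaks at chromosome 9 from 7551860 to 7573154 and 1 of 7 at chromosome 4 from 102279255 to 102331653 touched H3K27me3.

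The 2 largest clusters without H3K4me1 at any peak had wide peaks of low enrichment. At chromosome 4 from 154214807 to 154227213, 6 peaks of 31, 116, 172, 78, 194 and 62 tags were 639 to 3463 bp wide, with fold enrichments of 2.72 to 5.03. At chromosome 7 from 71610523 to 71640134, 6 peaks of 38 to 125 tags had fold enrichments of 1.95 to 3.19. Neither touched H3K27me3 or Hoxa9. The third, at chromosome 16 from 29527023 to 29545319, was of another kind, with 4 peaks of 26 to 42 tags, 499 to 691 bp wide, at fold enrichments of 6.73 to 12.64.

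Some strong peaks were far from any other. The most remote peak of 100 or more tags lay at chromosome 8 from 30146905 to 30148192, held 153 tags at a fold enrichment of 42.51 and was 1.78 Mb from the nearest C/EBPα summit. It touched H3K4me1. The second, at chromosome 8 from 105042067 to 105042928, held 113 tags, lay 1.11 Mb from a neighbour and touched Hoxa9 but neither mark. The third, at chromosome 2 from 8612499 to 8613620, held 159 tags, lay 1.07 Mb from a neighbour and touched H3K4me1. Of all 3333 strong peaks 225 touched no H3K4me1 region. The 3 of these with most tags were the chromosome 17 peak of 5916 tags, the chromosome 3 peak of 543 tags and a peak of 540 tags at chromosome 12 from 75904792 to 75905790, enriched 2.56-fold.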

How the data were processed

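ChIP-seq peak lists of C/EBPα, Hoxa9, H3K4me1 and H3K27me3, 1 library each, were analysed, without the input library. The submitters' processing notes name MACS 1.4, BWA 0.6.2, CASAVA 1.8.2 and the mouse build mm9. The settings and control of the caller and the total reads were not given in the sources used here. Deposited columns, per the file headers, were the count of tags in each peak (whole and unnormalized), a score of 10 times the −log10 of a p-value, the false discovery rate in percent, and a linear ratio, the fold enrichment over background. Widths and summit offsets were in bp. Each library had a list of its own.

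Summits were placed at start plus offset minus 1, and overlap meant at least 1 bp in common. Shares carry exact Clopper-Pearson intervals and differences Newcombe intervals, both at 95% (Python 3.11.15, scipy 1.17.1, statsmodels 0.14.6). Peaks of 1 library are not replicates and neighbours are not independent, so no p-value is given, and the direction on each of 20 chromosomes is given instead. The overlap and chaining code was tested on simulated peaks. Tiers, clusters and comparisons were chosen with earlier results of these data known. Named peaks and clusters followed a rule: most tags, fold enrichment or width, most peaks (ties by summed tags) or peaks per kb, contact with H3K27me3, lack of H3K4me1, or remoteness. Gene annotation and sequence of mm9 were not used here, so peaks are named by coordinates. Alternatives changed the overlap rule, the peaks kept, the tiers and the cluster limit.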

Additional observations from a re-analysis of the deposited data

How the results depend on the processing

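Of 58 alternatives to 7 results, 37 stayed within the interval of the reported value (for the number of clusters, within 1.5 times), 21 moved beyond it and 0 reversed. Of 44 alternatives to differences, 1 had an interval that held 0. The difference in H3K4me1 between the outer tiers, 33.8 points, was 24.3 at the summit base, 23.3 with at least 50% of the peak inside the region, 41.8 with the upper 50% of regions by score, 26.9 with tiers by fold enrichment and 37.3 with peaks of fold enrichment 5 or more. Between clusters of 4 or more and peaks standing alone it was, among weak peaks, 40.1 with the upper 50% of regions, 32.6 with tiers by fold enrichment and 33.4 at a limit of 5 kb, against 36.2. Among strong peaks, against 6.06, it was 11.0, 8.35 and 3.36 in the same order, and 8.27 at 25 kb. The share of peaks in clusters of 4 or more, 16.2%, was 3.17% at 5 kb, 36.9% at 25 kb, 7.82% with peaks of 30 or more tags, 14.5% with summits within 1 kb merged and 11.6% with peaks of fold enrichment 5 or more. The number of such clusters, 863, was 192, 1684, 262 and 532 in the same order without the merged setting. For H3K27me3 the difference between the outer tiers and that by cluster size among weak peaks were varied, and neither moved beyond its interval. The cluster limit was not varied for H3K27me3. Its difference by cluster size among strong peaks was not among the 7 results. A false discovery rate of 1% or less removed 0 peaks and so changed nothing, though its alternatives are counted among the 37. The densest peaks were all in the strongest tier, and leaving them out did not change the differences among weak peaks, also counted there. The fold enrichment setting (4842 peaks removed) and the one that left out the densest peaks (14 removed) were chosen after seeing the data. Sites too weak to be called are missing, and library depth is not given in the sources used here. No paired analysis was possible because each precipitation had 1 library.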

Other observations

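C/EBPα peaks on chromosome X were fewer, weaker and less clustered than on any autosome. It held 569 peaks, of which 4.75% were in the strongest tier, against an autosomal median of 12.7% and a lowest autosomal value of 10.4% on chromosome 14. Weak peaks made up 53.3% of its list, against an autosomal median of 41.7%. On X 60.3% of peaks stood alone and 7.03% were in clusters of 4 or more, against autosomal medians of 45.0% and 16.6%. H3K4me1 touched 36.7% of its peaks, against 70.1% to 78.4% over the autosomes. The difference in H3K4me1 between the outer tiers was 33.1 points without X, against 33.8 with it.

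Among autosomes, chromosome 19 was the densest in C/EBPα peaks, with 15.5 per Mb against a median of 10.5, and carried 0.687 clusters of 4 or more per Mb against a median of 0.356. Chromosome 18 had the highest share of peaks in such clusters, 21.2%, at a density of 8.96 peaks per Mb, whereas chromosome 2 had the lowest, 13.1%, at 11.8 peaks per Mb. Density alone thus did not order the autosomes by clustering. These values describe 1 library and were not tested.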
